A study of Homo sapiens with 15 samples.

Results

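MPA was compared with DHT in ZR-75-1 cells, an established line from a human breast carcinoma that expresses estrogen and progesterone receptors. The comparison took the 3 arrays titled MPA and the 3 titled DHT, 6 of the 15 arrays of the series, both at 10 nM for 6 h, and every probe set with 1 gene symbol: 14841 of the 34878 probe sets of the deposited table, for 14361 genes. The other arrays, 3 each, were vehicle (0.1% ethanol, also titled untreated), PROG and DEX at the same dose and time. All cells grew in RPMI-1640 with 10% FBS, so the vehicle cells also had serum, and hormone-stripped serum is not mentioned. The labels give the agents by abbreviation, read here as medroxyprogesterone acetate, dihydrotestosterone, progesterone and dexamethasone. The model is 1 cell line, and the labels do not say that replicates were separate cultures, so a p-value measures the spread between these samples, which may be technical.

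MPA is a synthetic progestin: progesterone with an added methyl group and an acetoxy group on the steroid skeleton. DHT is the androgen formed from testosterone by 5-alpha reduction, and it lacks the 2-carbon side chain that progesterone and MPA carry. As background, steroid hormones act through nuclear receptors, several of which bind closely related DNA elements, and MPA can act as a progestin, an androgen and a glucocorticoid, whereas DHT acts chiefly as an androgen. Luminal breast cells use these receptors beside the estrogen receptor, whose program they can modify.

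The arrays gave deposited log2 values with medians of 3.69 to 3.73. Replicates of MPA and of DHT correlated at 0.9971 to 0.9978, and MPA with DHT arrays at 0.9959 to 0.9969. All 13 measured luminal markers lay above the array medians, among them the keratin gene KRT18 and the pioneer factor genes GATA3 and FOXA1. The summed log2 level of the 13 was 126.7 to 126.9 with MPA and 127.4 to 128.2 with DHT. Of the 13, 3 were called higher with DHT (ESR1, PGR and FOXA1, values below), against 0.975% of all genes. AGR2 was called higher with MPA (0.17, against 2.60% of all genes), and lost its call with each of the 6 arrays left out. Of the basal markers 2 of 6 lay above the array medians, of the fibroblast markers 1 of 4 and of the blood and endothelial markers 2 of 6. Of these 16 markers EGFR, on the basal list, was called between MPA and DHT (values below). KRT5, KRT14, FBN1, DCN and VWF had means under the lowest array median in both groups. DHT replicates 1 and 2 stood more than 0.3 above each of the other 13 arrays at 16 probe sets, of which 3 enter the calls below (SERF2, RNF185 and ABHD11).

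MPA and DHT left most measured transcripts at similar levels and differed at a minority, most of them higher with MPA. A moderated test in limma, adjusted by Benjamini-Hochberg over all 14841 probe sets, called 521 at an adjusted p under 0.05 (3.51%), and "called" has this meaning throughout. Of these, 376 were higher with MPA (2.53%) and 145 higher with DHT (0.977%). Against vehicle, MPA was called higher at 610 probe sets (4.11%) and lower at 270 (1.82%), and DHT higher at 115 (0.775%) and lower at 17 (0.115%), the same vehicle arrays serving both. In bulk RNA of a culture, a change in the number of cells that express a gene and a change in its RNA per cell cannot be told apart. Differences of at least 1.5-fold were called at 89 probe sets higher with MPA (0.600%) and at 10 higher with DHT (0.0674%). The median difference was 0.39 on the log2 scale among calls higher with MPA and -0.30 among those higher with DHT. The 6 arrays separated into 2 groups without overlap at 520 of the 521, against 16.3% of all probe sets tested, and the exception was ABHD11. For 14459 probe sets (97.4%) the 95% interval of the difference lay within 1.5-fold either way. The calls named 491 protein-coding probe sets, 13 long non-coding RNAs and 8 microRNA genes. At 25 of the 521 both group means lay under the lowest array median.

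Leaving out each of the 6 arrays in turn kept 311 of the 521 calls in all 6 fits, 245 higher with MPA and 66 higher with DHT. Among differences of at least 1.5-fold these were 85 of 89 and 6 of 10. Without both DHT replicates 1 and 2, which leaves DHT with 1 array assumed to vary like the rest, 238 were called, 183 higher with MPA and 55 with DHT.

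**Figure D1:**
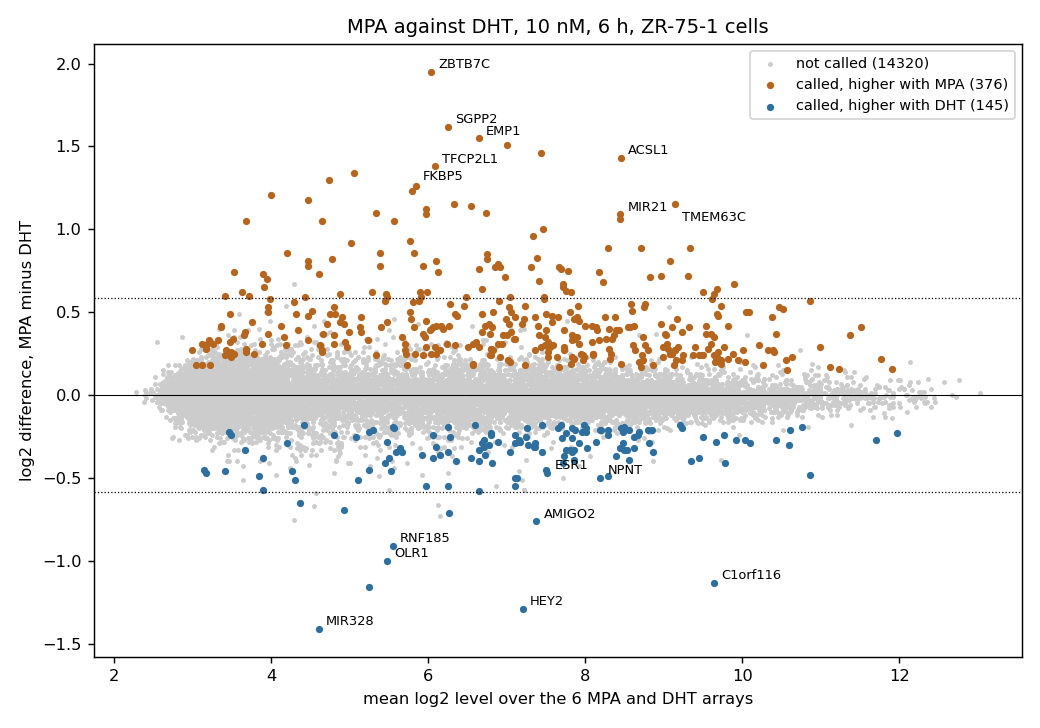
Log2 difference between MPA and DHT (vertical axis) against the mean log2 level over the 6 arrays (horizontal axis) for 14841 probe sets, with dotted lines at 1.5-fold. The 376 calls higher with MPA reach 1.95 and the 145 higher with DHT reach -1.41.

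The largest difference in favour of MPA was at ZBTB7C, a zinc finger transcription factor gene. Its log2 levels were 6.81, 7.03 and 7.19 with MPA and 4.98, 5.08 and 5.12 with DHT, while vehicle arrays lay at 4.62 to 4.88. MPA arrays thus stood apart from both DHT and vehicle, with a difference from DHT of 1.95 (SE 0.12, 3.86-fold, limma adjusted p = 2.41e-07). SGPP2, which encodes a sphingosine-1-phosphate phosphatase, had 7.10, 6.92 and 7.17 with MPA and 5.50, 5.58 and 5.25 with DHT, 3.07-fold apart (adjusted p = 6.36e-07). EMP1, an epithelial membrane protein gene, had 7.34, 7.41 and 7.50 with MPA and 5.73, 5.84 and 6.04 with DHT. EMP1 differed by 1.55 (SE 0.089, 2.92-fold).

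ACSL1 encodes an enzyme that activates long-chain fatty acids, and it had 9.20, 9.17 and 9.14 with MPA and 7.67, 7.81 and 7.74 with DHT. The difference was 1.43 (SE 0.050, adjusted p = 1.46e-09), and DHT differed from vehicle by 0.11 (adjusted p = 0.474). UNC5B, a netrin receptor gene, showed 8.20, 8.16 and 8.12 with MPA against 6.63, 6.77 and 6.71 with DHT, a difference of 1.46. The transcription factor gene TFCP2L1 showed 6.76, 6.75 and 6.79 against 5.43, 5.33 and 5.40, a difference of 1.38. In both genes the difference between DHT and vehicle did not pass the test (adjusted p = 0.241 for UNC5B and 0.546 for TFCP2L1). GREB1L, PLLP, ACOT6, RHOU, TMEM63C and F2R completed the set of large differences, from 1.15 to 1.51. Separated groups were a condition for entering this set.

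NDRG1, a stress-responsive gene known as an androgen target in prostate cells, had the widest MPA spread of these genes: 7.01, 6.03 and 6.40 with MPA and 5.16, 5.21 and 5.30 with DHT. It differed by 1.26 (SE 0.17, adjusted p = 4.56e-04), and by 0.99 to 1.48 with 1 array left out. P3H2, a collagen prolyl hydroxylase gene, had DHT arrays at 3.58, 3.12 and 3.46, around the lower end of the scale, and MPA arrays at 4.73, 4.30 and 4.76. Its fold, 2.31, therefore rests on a group mean near background.

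DHT gave the higher level at fewer genes, which stood differently against vehicle. C1orf116, an androgen-regulated gene of prostate cells, rose against vehicle with both agents, more with DHT. Its arrays were at 10.20, 10.27 and 10.14 with DHT, 9.02, 9.02 and 9.17 with MPA and 6.71 to 6.74 with vehicle. It was thus 2.19-fold higher with DHT than with MPA (MPA minus DHT -1.13, SE 0.056, adjusted p = 4.07e-08), while MPA itself stood 2.35 above vehicle (SE 0.056) and DHT 3.48 (SE 0.056). OLR1, the oxidised LDL receptor gene, moved in opposite directions from vehicle: 5.99, 5.92 and 6.02 with DHT, 4.87, 4.99 and 5.07 with MPA and 5.22 to 5.33 with vehicle. DHT stood 0.71 above vehicle (adjusted p = 2.45e-04) and MPA fell by 0.29 (adjusted p = 0.0433), 2.00-fold between the agents (adjusted p = 1.83e-06).

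HEY2, a repressor downstream of Notch, had 6.48, 6.52 and 6.67 with MPA, 7.78, 7.90 and 7.86 with DHT and 7.51 to 7.64 with vehicle. It fell by 1.01 with MPA (adjusted p = 3.35e-06), and the change with DHT, 0.28, did not pass the test (adjusted p = 0.230). The agents differed by -1.29 (SE 0.089, 2.45-fold, adjusted p = 6.71e-07). AMIGO2, a cell adhesion gene, fell with both: 6.76, 7.25 and 6.98 with MPA, 7.74, 7.70 and 7.82 with DHT and 8.13 to 8.31 with vehicle. It was 1.69-fold lower with MPA than with DHT (adjusted p = 4.09e-04). GLI3, a Hedgehog transcription factor gene, and NPNT, an extracellular matrix gene, differed by -0.55 (SE 0.068) and -0.50 (SE 0.039), and LRRK2, a kinase gene, by -0.55 (SE 0.090).

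Among other genes called higher with DHT, RNF185 and SERF2 had DHT replicates 1 and 2 well above replicate 3. RNF185 had 6.41, 6.22 and 5.38 with DHT and 5.34, 4.68 and 5.26 with MPA, so DHT replicate 3 lay just above the MPA range. Its call (-0.91, adjusted p = 0.0412) was lost in 4 of the 6 fits that leave out 1 array (without DHT 1, DHT 2, MPA 2 or MPA 3, highest adjusted p = 0.184), and a second RNF185 probe set differed by -0.06. SERF2 had 6.96, 6.76 and 6.13 with DHT and 5.94, 5.76 and 6.03 with MPA. Its call was lost without DHT 1, DHT 2, MPA 1 or MPA 2 (highest adjusted p = 0.108), with a second probe set at -0.00. GALNT2 was called at 1 probe set (-0.51) and differed by 0.03 at another. This limit was general: of 20 called genes with several probe sets, in either direction, 0 were called the same way at all of them. ABHD11 (DHT 6.39, 6.17 and 4.91, MPA 4.81, 4.28 and 4.91) lost its call in every such fit except the one without DHT 3 (highest adjusted p = 0.187).

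**Figure D2:**
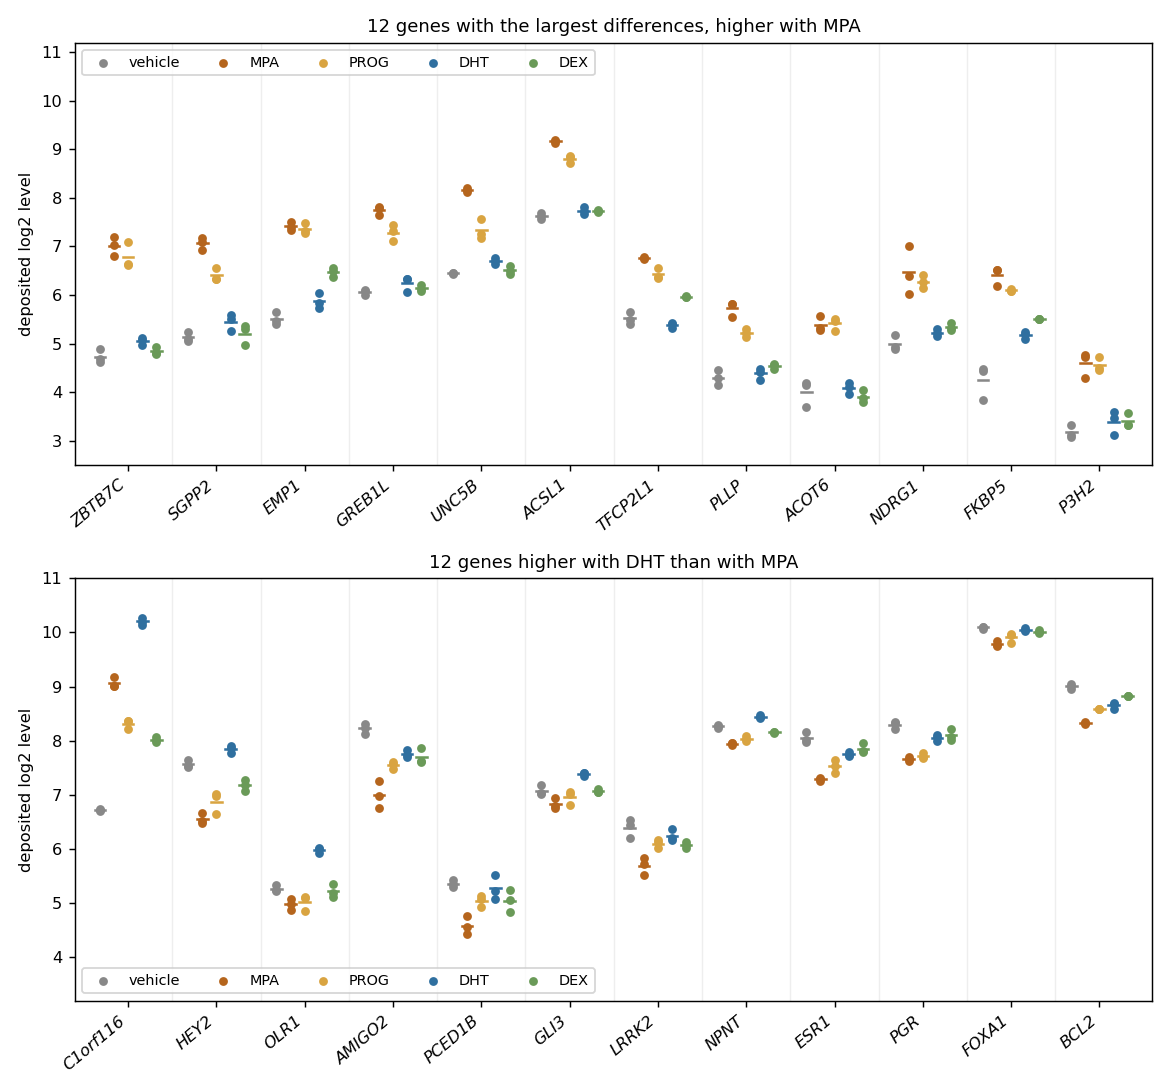
Deposited log2 level of each array (points) with the group mean (short line) for 12 genes higher with MPA and 12 higher with DHT, in vehicle, MPA, PROG, DHT and DEX arrays. At each gene the 3 MPA points lie on one side of the 3 DHT points, as at C1orf116 (9.02 to 9.17 against 10.14 to 10.27), and levels are comparable within a gene only. Genes named for the largest differences were chosen on the condition that their groups were separated.

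Genes listed here as progestin-induced, 15 of them already named in an earlier description of these arrays, were mostly higher with MPA. Of 35 measured, 22 were called higher with MPA and none with DHT, with a median difference of 0.46 over the 35, against 2.60% and 0.975% of all 14361 genes and a median of 0.00. HSD11B2, the enzyme that inactivates cortisol, had 9.04, 8.95 and 8.93 with MPA, 7.87, 7.92 and 7.96 with DHT and 7.18 to 7.38 with vehicle. It rose with both agents, by 1.70 with MPA and 0.64 with DHT (adjusted p = 1.07e-04 for DHT), and differed by 1.06 between them (SE 0.065, adjusted p = 2.41e-07). RANBP3L, a nuclear export cofactor gene, had 5.88, 6.05 and 5.74 with MPA, 4.74, 4.94 and 4.68 with DHT and 3.47 to 3.59 with vehicle, and differed by 1.10 (SE 0.097). S100P, a calcium-binding protein gene, differed by 0.78 (SE 0.057) and IRS2, an insulin receptor substrate gene, by 0.76 (SE 0.071). Members that did not pass included the cyclin gene CCND1 (0.15, SE 0.054) and ELF5 (-0.01, SE 0.070). Without the 15 genes named earlier, 7 of 20 were called higher with MPA, and the median was 0.14. The list, like those below, was chosen with earlier results of these arrays known. Its count over all 35 is therefore not independent of those results.

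Glucocorticoid-induced genes showed the same direction, with 19 of 30 called higher with MPA (63.3%) and 1, CRISPLD2 (-0.40, SE 0.060), higher with DHT (3.33%). Of all genes, 2.60% and 0.975% were so called. The median difference of the list was 0.40. With 1 array left out, 15 to 17 of the list were called higher with MPA. MAP3K6 lost its call in 6 of the 6 such fits, ANGPTL4 in 5, and LCN2 and LPIN1 in 4 each. FKBP5, a co-chaperone of steroid receptors, had 6.52, 6.52 and 6.18 with MPA, 5.20, 5.10 and 5.24 with DHT and 3.83 to 4.48 with vehicle. DHT raised it by 0.93 (adjusted p = 0.00299) and MPA by 2.16, a difference of 1.23 (SE 0.13, adjusted p = 5.73e-05). PER1, a repressor of the circadian clock, had 7.80, 7.73 and 7.85 with MPA and 6.78, 7.04 and 7.08 with DHT (0.83, SE 0.10). KLF9, a Kruppel-like transcription factor gene, had 7.23, 6.99 and 7.29 with MPA and 6.12, 6.47 and 6.38 with DHT (0.85, SE 0.092). MPA arrays were above all DHT arrays at each of the 3 genes. The zinc-binding metallothionein MT2A differed by 0.62 (SE 0.046) and MT1X by 0.42 (SE 0.059), the other 9 measured metallothioneins not being called. SGK1 was called at levels under every array median (2.97, 2.94 and 2.98 with DHT), and lost its call without MPA replicate 3 (adjusted p = 0.0593), while ZBTB16, as dim, differed by 0.15 (adjusted p = 0.231). Without 13 members named earlier, 8 of 17 were called higher with MPA, with a median of 0.23. The progestin and glucocorticoid lists share 5 measured genes.

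Androgen-induced genes were called in both directions. Of 26 measured, 7 were called higher with MPA (26.9%), 2 higher with DHT (7.69%, C1orf116 and IQGAP2) and 17 were not called. Of all genes, 2.60% and 0.975% were called higher with MPA and with DHT. The median difference of the list was 0.13. IQGAP2, a scaffold protein gene, differed by -0.29 (SE 0.061), and its call was lost without MPA 1, DHT 1 or DHT 3 (highest adjusted p = 0.0603). EAF2, a transcription elongation factor gene, had 8.83, 8.86 and 8.85 with MPA, 8.42, 8.27 and 8.31 with DHT and 7.31 to 7.45 with vehicle, so that both agents raised it and MPA by more (0.51, SE 0.062, adjusted p = 1.44e-04). TIPARP, an ADP-ribosyltransferase gene, differed by 0.89 (SE 0.068) and did not pass the test between DHT and vehicle (0.17, adjusted p = 0.426). Without 9 members named earlier, 4 of 17 were called higher with MPA and none with DHT.

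Some strongly induced genes were not called between the agents. CLDN8, a tight junction claudin gene, had 7.62, 7.60 and 7.49 with MPA and 7.63, 7.67 and 7.44 with DHT, against 5.38 to 5.68 with vehicle. The difference between the agents was -0.01 with a 95% interval from -0.19 to 0.17. KDM4B, a histone demethylase gene, rose by 0.89 with MPA and 0.76 with DHT, and the interval of its difference ran from -0.10 to 0.36. AQP3, a water and glycerol channel gene, differed by 0.40, short of the threshold (adjusted p = 0.0630), although its arrays did not overlap, at 7.36, 7.48 and 7.41 with MPA and 6.95, 6.85 and 7.24 with DHT. It passed without dim probe sets (adjusted p = 0.0467), with quantile normalization (0.0483), with an intensity trend (0.0330) and without DHT replicate 3 (0.0147). limma called none of the 17 measured apocrine and kallikrein genes (1 at an unadjusted p under 0.05), at a median of 0.01 with differences from -0.11 to 0.14. Unlike the genes above, this list did not rise in its median with either agent (-0.02 with MPA and -0.04 with DHT against vehicle). PIP, an apocrine secretory protein gene, differed by 0.13 (interval -0.02 to 0.27), and the prostate antigen gene KLK3 was dim, at 3.41 to 3.75 over the 6 arrays.

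**Figure D3:**
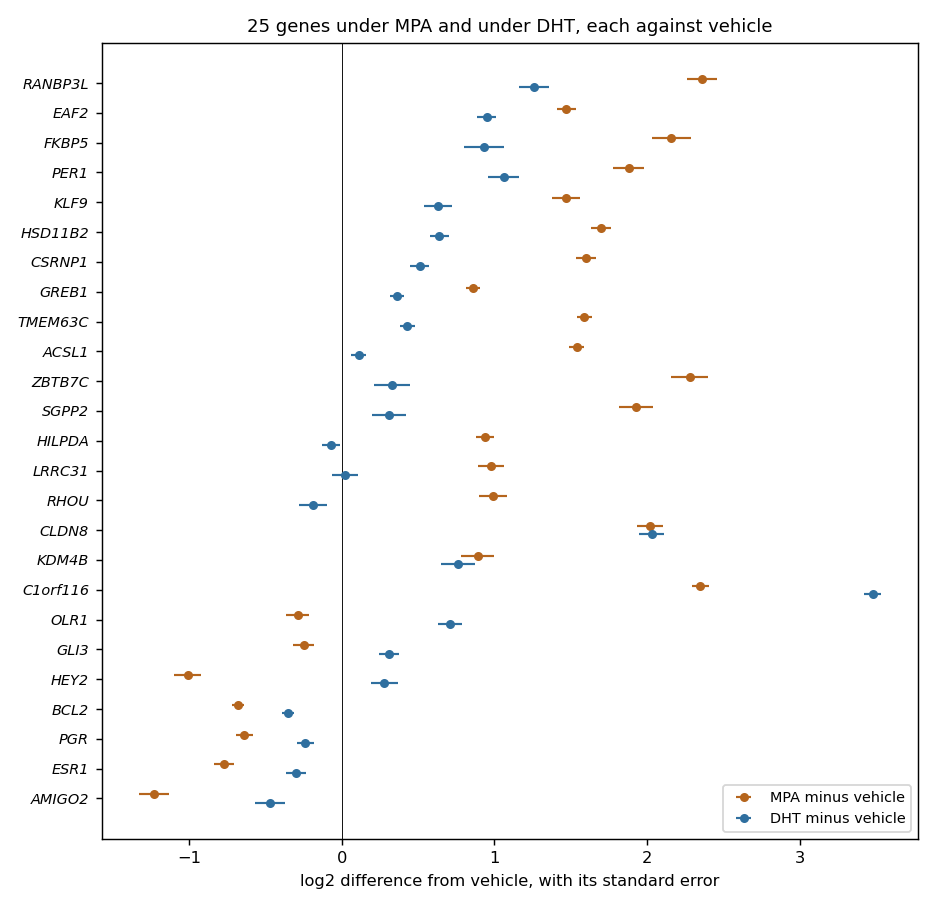
Log2 difference from vehicle (horizontal axis) under MPA and under DHT for 25 genes, points with their standard errors from the fit, each based on 3 against 3 arrays that share the vehicle arrays. CLDN8 has both points at the same place (2.02 and 2.03), C1orf116 has DHT to the right (3.48 against 2.35), and OLR1 has the points on opposite sides of 0.

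The estrogen and progesterone receptor genes were lower with MPA. Of 20 measured receptors, pioneer factors and co-regulators, 3 were lower with MPA than with DHT (ESR1, PGR and FOXA1) and 2 higher (FKBP5 and PGRMC2). ESR1, the estrogen receptor gene, had 7.29, 7.25 and 7.31 with MPA, 7.72, 7.80 and 7.73 with DHT and 7.97 to 8.16 with vehicle. It fell by 0.77 with MPA and 0.30 with DHT (adjusted p = 0.0486), and was 1.38-fold lower with MPA than with DHT (-0.47, SE 0.065, adjusted p = 5.00e-04). PGR, the progesterone receptor gene, had 7.63, 7.69 and 7.66 with MPA against a DHT mean of 8.05, whose highest array was 8.10 (-0.39, SE 0.056). FOXA1, which opens chromatin for these receptors, had 9.84, 9.75 and 9.76 with MPA and 10.05, 10.08 and 10.03 with DHT (-0.27, SE 0.047). In the 3 genes the lowest DHT array stood above the highest MPA array. ESR1 is next to CCDC170 among measured genes of chromosome 6, and CCDC170 is next to RMND1. CCDC170 differed by -0.34 (SE 0.065) and RMND1 by -0.41 (SE 0.059).

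Most estrogen-induced genes were not called. Of 29 measured, 1 was called higher with MPA (3.45%, against 2.60% of all genes) and 2 higher with DHT (6.90%, against 0.975%). The median difference of the list was 0.01. GREB1, an estrogen receptor cofactor gene, had 10.38, 10.26 and 10.25 with MPA and 9.78, 9.85 and 9.75 with DHT, and differed by 0.50 (SE 0.047). The survival gene BCL2 went the other way, at 8.32, 8.35 and 8.31 against 8.59, 8.67 and 8.70 (-0.33, SE 0.039, adjusted p = 1.51e-04), below the vehicle arrays of 8.96 to 9.04 with either agent. TFF1 (0.03, SE 0.044), XBP1 (0.03, SE 0.037) and MYC (0.03, SE 0.049) were not called. All 3 called genes had been named earlier, so the 23 others held none.

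Growth factor signalling genes differed at 8 of 24 measured members of the EGF family, its receptors and adaptors, all 8 higher with MPA. This is 33.3%, against 2.60% of all genes, and the median was 0.08. Among the members, ERRFI1 is also on the glucocorticoid list, HBEGF on the progestin list and IRS2 on both. The counts of these lists are therefore not separate. The receptor gene EGFR had 7.73, 7.78 and 7.78 with MPA, 7.02, 7.08 and 7.11 with DHT and 6.89 to 7.05 with vehicle (0.69, SE 0.049, adjusted p = 8.96e-07). The feedback inhibitors SPRY4 and ERRFI1 differed by 0.79 (SE 0.091) and 0.64 (SE 0.053). The ligand genes EGF and HBEGF differed by 0.59 (SE 0.050) and 0.49 (SE 0.096), while ERBB3 was at 0.02 (SE 0.046). Immediate early genes, the transcription factors and phosphatases that growth signals induce first, were called higher with MPA at 10 of 27, none with DHT. This is 37.0%, against 2.60% of all genes, and the median was 0.20. The list shares DUSP1, KLF6 and ZFP36 with the glucocorticoid list, and DUSP1 and KLF4 with the progestin list. JUN had 7.15, 7.42 and 7.41 with MPA and 6.58, 6.63 and 6.64 with DHT (0.71, SE 0.074), and FOSL2 differed by 0.54 (SE 0.046). The phosphatase gene DUSP1 differed by 0.48 (SE 0.060), whereas MYC, FOSB and KLF10 were not called.

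Notch genes were called in both directions. The ligand gene JAG1 had 4.91, 4.81 and 4.90 with MPA, 3.79, 4.20 and 4.21 with DHT and 4.16 to 4.43 with vehicle (0.81, SE 0.12, adjusted p = 7.72e-04). The receptor gene NOTCH2 had 11.22, 11.09 and 11.12 against 10.57, 10.59 and 10.57 (0.57, SE 0.046). Both were separated, MPA above DHT. The targets HEY2 (-1.29) and NRARP (-0.38, SE 0.085) and the receptor gene NOTCH3 (-0.23, SE 0.047) were called higher with DHT, and the other 20 of 25 measured members were not called. NRARP lost its call without MPA 1, MPA 2 or DHT 3 (highest adjusted p = 0.0802) and NOTCH3 without DHT 3 (adjusted p = 0.0516).

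Lipid genes were called at 5 of 28 higher with MPA (17.9%) and 1 higher with DHT (3.57%), against 2.60% and 0.975% of all genes. The gene higher with DHT was ACACB (-0.20, called only without MPA 3 when 1 array was left out, highest adjusted p = 0.170). Of the 5, LPIN1 (0.44, SE 0.097) and ELOVL5 (0.24, SE 0.050) lost their calls in 4 and 3 of the 6 fits (highest adjusted p = 0.0896 and 0.0650), both of them without DHT 1 and without MPA 3, where 3 members were called higher with MPA. ACOT6, an acyl-CoA thioesterase gene, had 5.32, 5.56 and 5.28 with MPA and 4.18, 3.97 and 4.10 with DHT (1.30, SE 0.12). The desaturase gene FADS1 had 8.81, 8.85 and 8.84 against 8.29, 8.41 and 8.55 (0.42, SE 0.066). The synthase gene FASN differed by 0.06 (SE 0.045) and ACLY by 0.00 (SE 0.036), and limma called 0 of 17 sterol synthesis genes (2 at an unadjusted p under 0.05). HILPDA, a lipid droplet gene outside the list, had 8.06, 7.88 and 7.94 with MPA and 6.90, 6.99 and 6.98 with DHT, 2.00-fold apart.

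Apoptosis regulators of the BCL2 family were called at 4 of 15 higher with MPA (26.7%) and 2 higher with DHT (13.3%). Of all genes, 2.60% and 0.975% were so called. The pro-apoptotic BMF had 5.50, 5.61 and 5.68 with MPA and 5.13, 5.23 and 5.21 with DHT (0.41, SE 0.055). BAK1, also pro-apoptotic, differed by -0.28 (SE 0.055), and the anti-apoptotic BCL2L1 and MCL1 by 0.24 (SE 0.042) and 0.25 (SE 0.042). Called members of each direction thus included both promoters and inhibitors of cell death, although BAK1 was the only promoter called higher with DHT. BAK1 lost its call when the MPA and DHT arrays were fitted alone (limma adjusted p = 0.0825). PMAIP1, also called higher with MPA (0.29), lost its call in 4 of the 6 fits that leave out 1 array (highest adjusted p = 0.130). G1-S genes were called at 4 of 29 (13.8%, against 2.60% of all genes), all higher with MPA. These were E2F1, CCNE2, GINS2 and CCNE1, at 0.18 to 0.28, of which GINS2 (0.22, SE 0.043) stayed called with each array left out. E2F1 lost its call in 4 of the 6 fits, CCNE2 in 3 and CCNE1 in 5, with highest adjusted p of 0.0832, 0.0687 and 0.178. limma called no gene among 30 mitotic, 21 ribosomal protein, 19 heat shock and unfolded protein response and 15 housekeeping genes, with medians of -0.03, -0.01, 0.02 and -0.01, and 3, 0, 5 and 1 of them had an unadjusted p under 0.05. Without MPA 1 or without MPA 3, 1 heat shock or unfolded protein response gene was called higher with DHT. Among 13 steroid metabolism enzymes HSD11B2 alone was called, and among 17 ion and water transport genes SGK1 alone, both higher with MPA. These are 7.69% and 5.88% of their lists, against 2.60% of all genes. Clock genes other than PER1 were called at CRY2 (0.31, SE 0.041) and NPAS2 (-0.18, SE 0.047, lost with each of the 6 arrays left out, highest adjusted p = 0.171), and the inflammatory list at NFKB1 alone (-0.21, SE 0.046, lost without MPA 1, DHT 2 or DHT 3, highest adjusted p = 0.0791). The clock calls are 14.3% of the list higher with MPA and 7.14% with DHT, and NFKB1 is 5.56% of its list. Of all genes, 2.60% were called higher with MPA and 0.975% with DHT.

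**Figure D4:**
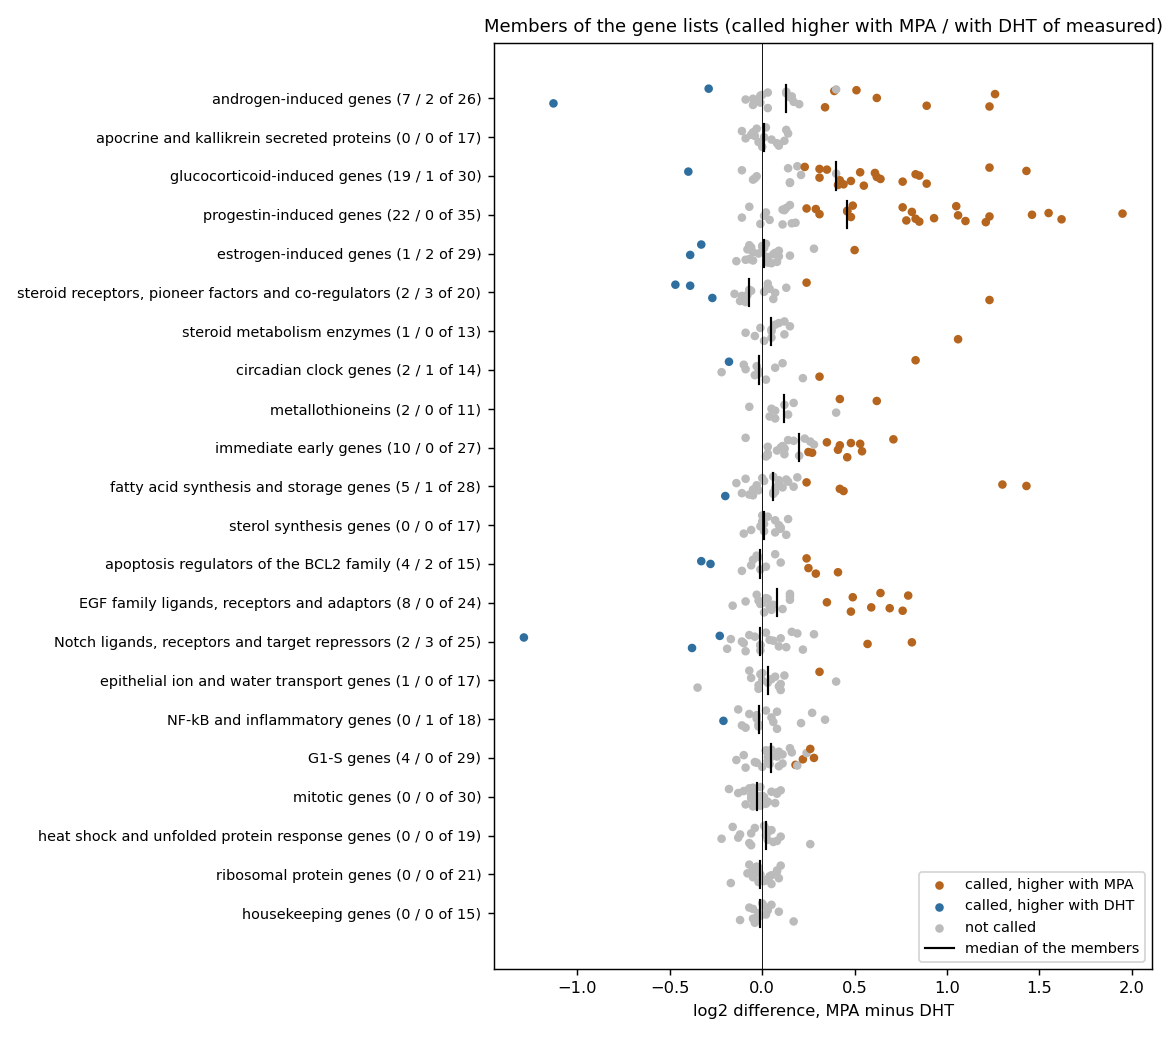
Log2 difference between MPA and DHT (horizontal axis) of each measured member of 22 gene lists, 1 point a gene, coloured by its call, with the list median as a black line. The progestin and glucocorticoid lists lie mostly to the right of 0, with medians of 0.46 and 0.40, and the mitotic and ribosomal lists are centred near 0. Without members named in an earlier description of these arrays, the progestin and glucocorticoid medians were 0.14 and 0.23.

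PROG and DEX arrays do not enter the difference between MPA and DHT, only the spread by which it was called. PROG minus vehicle and DEX minus vehicle were read over the same calls. Both were called with that same spread, so the shares called are not an independent reading. Of the 376 probe sets higher with MPA, 360 (95.7%) lay above 0 with PROG, at a median of 0.31, against 49.3% and a median of 0.00 over all tested. PROG minus vehicle was itself called higher at 243 of the 376 (64.6%), which is 67.3% of the 361 called higher with PROG (2.43% of all tested). With DEX 307 (81.6%) lay above 0, at a median of 0.11, against 54.5% and 0.01 over all tested. DEX was called higher at 76 (20.2%), or 53.5% of the 142 called higher with DEX (0.957%). Over the 145 probe sets higher with DHT, 119 lay below 0 with PROG (median -0.12) and 98 with DEX (median -0.05), and 28 and 7 were called lower, against 0.391% and 0.148% of all tested.

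The other compounds differed from gene to gene. ZBTB7C had 6.64, 7.10 and 6.62 with PROG and 4.79, 4.93 and 4.81 with DEX, so PROG arrays reached the MPA range and DEX minus vehicle did not pass the test (adjusted p = 0.800). EMP1 stood 1.85 above vehicle with PROG and 0.96 with DEX. PER1 was 2.14 above vehicle with DEX, 1.88 with MPA and 1.06 with DHT. ACSL1 and LRRC31 did not pass with DEX (0.11 and -0.03) and stood 1.18 and 1.08 above vehicle with PROG. At RANBP3L PROG stood 0.94 above vehicle (adjusted p = 2.80e-05), DEX 0.36 (adjusted p = 0.121) and DHT 1.26. ATP13A4, a cation transporter gene of the progestin list, had means of 6.23 with MPA, 5.30 with PROG, 5.30 with DHT and 5.24 with vehicle.

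**Figure D5:**
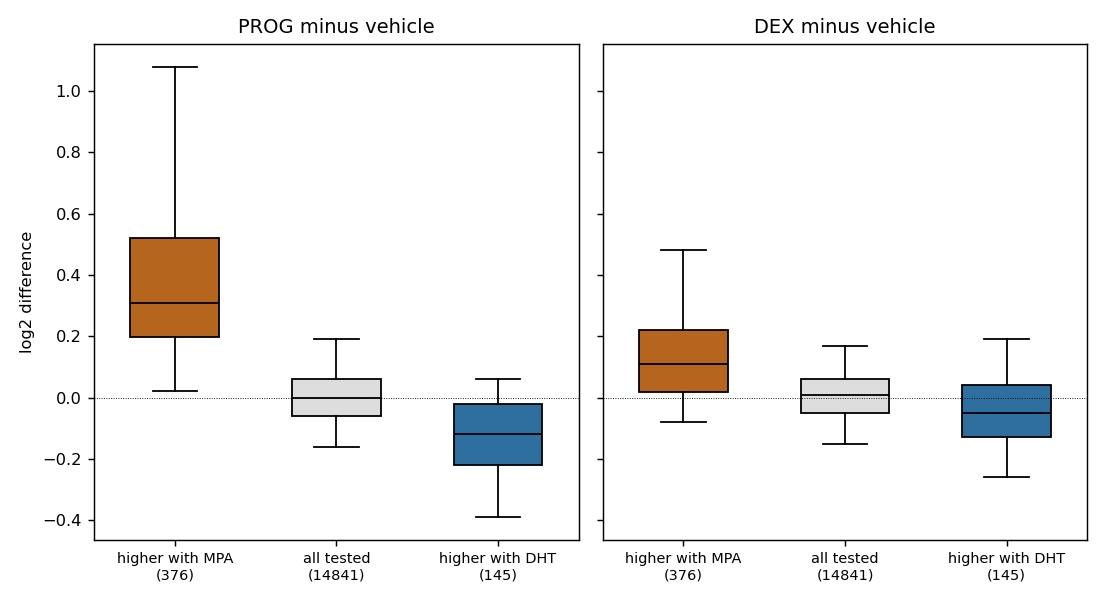
Log2 difference from vehicle (vertical axis) with PROG (left) and DEX (right) over the 376 probe sets higher with MPA, all 14841 tested and the 145 higher with DHT. Boxes show the quartiles with the median and whiskers the 5th and 95th percentiles of probe sets. The box of the MPA calls is centred at 0.31 with PROG and 0.11 with DEX.

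Of 11870 adjacent pairs of measured protein-coding genes, 33 had both members called in the same direction and 3 in opposite directions. Of all genes tested, 2.60% were called higher with MPA and 0.975% higher with DHT. Among the 485 called protein-coding genes with a position, 62 were in the 33 pairs. Whether 33 exceeds the number that such rates would give was not tested. Of the 33 pairs, 26 were higher with MPA and 7 with DHT. Pairs were ranked by the smaller of their 2 differences, and the 5 leading pairs are described. The first was AMIGO2 and PCED1B on chromosome 12, at -0.76 and -0.69. PCED1B had 4.43, 4.76 and 4.55 with MPA and 5.08, 5.51 and 5.23 with DHT. OLR1 and TMEM52B, also on chromosome 12, were 2.00-fold and 1.57-fold higher with DHT. Those higher with MPA among the 5 were MRFAP1 and S100P on chromosome 4 (0.67 and 0.78), TTC21A and CSRNP1 on chromosome 3 (0.59 and 1.09) and SRMS and HELZ2 on chromosome 20 (0.55 and 0.61). CSRNP1, which encodes a cysteine- and serine-rich nuclear protein, had 6.52, 6.61 and 6.44 with MPA and 5.36, 5.38 and 5.56 with DHT. In RefSeq's table of GRCh38.p14 these pairs are next to each other among measured genes, and other genes may lie between them.

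Promoter letters were read because the receptors involved share an element, AGAACA, then 3 bases of any kind, then TGTTCT, which is its own reverse complement. In windows of 300 bases, 250 before and 50 after each start in RefSeq (GRCh38.p14), the full element occurred in 0 of the 14780 promoters of tested genes and in 1 of all 35116. The hexamer TGTTCT, or AGAACA on the other strand, occurred in 54 of 486 promoters of genes higher with MPA (11.1%), in 15 of 183 of genes higher with DHT (8.20%) and in 11.1% of tested promoters. A match is a description of letters, and the absence of one refers to this window only. The 250 bases before a start are shown for SGPP2, the largest MPA difference with the hexamer (in capitals, 164 bases before the first of its 2 starts, chr2:222423738-222423987, plus strand), and for C1orf116 (chr1:207032757-207033006, minus strand) and HEY2 (chr6:125749382-125749631, plus strand), the 2 protein-coding genes with the largest differences in favour of DHT among those whose arrays did not overlap, which lack it. ABHD11, whose difference (-1.16) was larger than that of C1orf116 but whose groups overlapped, has 1 hexamer in its window. ZBTB7C, with a larger difference in favour of MPA than SGPP2, lacks the hexamer at its 3 starts, as does the second start of SGPP2. ESR1, called higher with DHT, has 1 hexamer at 1 of its 6 starts. The sequences are therefore examples, and the shares above are the comparison between groups.
SGPP2: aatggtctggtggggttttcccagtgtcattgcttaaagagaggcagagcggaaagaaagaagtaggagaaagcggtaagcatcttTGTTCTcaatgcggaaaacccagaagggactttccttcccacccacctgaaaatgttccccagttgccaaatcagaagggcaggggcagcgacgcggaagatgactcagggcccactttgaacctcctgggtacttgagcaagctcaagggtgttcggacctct
C1orf116: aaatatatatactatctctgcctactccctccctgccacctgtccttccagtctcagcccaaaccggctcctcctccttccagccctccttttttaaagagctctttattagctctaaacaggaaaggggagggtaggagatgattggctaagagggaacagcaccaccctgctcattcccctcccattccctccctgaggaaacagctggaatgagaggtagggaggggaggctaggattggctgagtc
HEY2: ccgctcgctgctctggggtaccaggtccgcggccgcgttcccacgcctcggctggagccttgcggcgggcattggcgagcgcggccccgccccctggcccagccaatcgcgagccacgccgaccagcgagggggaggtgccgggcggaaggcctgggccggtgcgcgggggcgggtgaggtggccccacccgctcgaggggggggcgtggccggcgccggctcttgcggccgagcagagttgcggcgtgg

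MicroRNA genes were called at 8 of 732 tested (1.09%, against 3.51% of all probe sets), 5 higher with MPA and 3 higher with DHT. No source here states whether these probe sets read the precursor or a longer host transcript, so they are described as gene signals. MIR21, an abundant microRNA of breast tumours, had 9.07, 9.08 and 8.82 with MPA, 7.71, 8.04 and 7.94 with DHT and 7.45 to 7.57 with vehicle. It differed by 1.09 (SE 0.084, 2.13-fold, adjusted p = 1.59e-06), and PROG (8.59, 8.70 and 8.60) and DEX (8.45, 8.38 and 8.51) lay between. MIR29C had 8.48, 8.62 and 8.60 with MPA and 7.80, 8.13 and 7.72 with DHT (0.68, SE 0.10). Both had separated groups.
MIR181B1 was lower with MPA, at 8.11, 8.05 and 7.98 against 8.51, 8.60 and 8.49 with DHT and 8.51 to 8.82 with vehicle (-0.49, SE 0.081, adjusted p = 0.00238). MIR328 had 4.05, 4.05 and 3.60 with MPA and 5.29, 4.99 and 5.64 with DHT, the largest difference in favour of DHT at any probe set (-1.41, SE 0.28, adjusted p = 0.00987). Its call was lost without MPA replicate 3 (adjusted p = 0.0534) or DHT replicate 3 (adjusted p = 0.0510). The MIR328 arrays spread widely within PROG (3.75, 4.70 and 4.68) and DEX (4.80, 3.98 and 3.71), and the MPA mean, 3.90, was close to the array medians. MIR141 differed by -0.36 (SE 0.093) and lost its call with each of the 6 arrays left out. MIR384, MIR521-2 and MIR3945 differed by 0.24 to 0.28, and the calls of MIR521-2 and MIR3945 were each lost in 5 of the 6 fits. Both were dim, with means under every array median (3.31 with MPA and 3.03 with DHT at MIR521-2, 3.53 and 3.29 at MIR3945). The mature RNAs of the 5 genes described in detail are given from RefSeq, with the seed that pairs with targets (bases 2 to 8) in capitals.
hsa-miR-21-5p: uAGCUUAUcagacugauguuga
hsa-miR-29c-3p: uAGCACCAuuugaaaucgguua
hsa-miR-181b-5p: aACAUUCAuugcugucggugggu
hsa-miR-328-3p: cUGGCCCUcucugcccuuccgu
hsa-miR-141-3p: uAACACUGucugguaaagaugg
The 5 seeds differ from one another, so no 2 of these genes share a seed family by this measure.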

How the data were processed

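Total RNA of 15 ZR-75-1 samples (5 groups of 3) was labelled with biotin and hybridised to expression arrays. The deposited log2 values were made by the authors with RMA in Partek, per the submitters' processing notes; no source here states settings, genome build or version. No scanner files were used. Genes were named through the platform table (14841 probe sets with 1 symbol, 20037 unnamed).

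limma 3.58.1 in R 4.3.3 fitted 5 group means over the 15 arrays (10 residual and 3.81 prior degrees of freedom). The difference between MPA and DHT was tested two-sided with eBayes, adjusted by Benjamini-Hochberg at 0.05, on unfiltered values. The script was tested on simulated data. Tables used Python 3.11.15 and pandas 2.3.3. A gene with several probe sets entered its lists by the one with the highest mean. The number of arrays limits precision.

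Named were the 15 protein-coding genes with the largest called, non-overlapping differences in each direction whose higher mean lay above every array median, up to 4 called members a list, the 3 largest non-coding genes in each direction, 5 neighbour pairs and fixed single genes. CLDN8, PIP, KLK3, ZBTB16 and RANBP3L were among these. EAF2, KDM4B, AQP3, HILPDA, LRRC31, ABHD11, ATP13A4, MAP3K6, ANGPTL4, LCN2, uncalled list members and the rest of short lists of calls were named after their values were seen. The comparison and lists were chosen with earlier results of these data known. Counts of gene lists describe these genes and carry no set test. Same-numbered MPA and DHT samples did not deviate together (correlations of 0.013, 0.027 and 0.001 over 9409 probe sets), so numbers were not used to pair samples.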

Additional observations from a re-analysis of the deposited data

How the results depend on the processing

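The 6 MPA and DHT arrays fitted alone gave 292 calls (237 higher with MPA, 55 higher with DHT, and 1 androgen-induced gene higher with DHT). An intensity trend gave 231 calls higher with DHT. Testing all probe sets, named or not, gave 192 differences of at least 1.5-fold, 167 higher with MPA and 25 higher with DHT. Added after seeing the data, leaving out DHT 1 and DHT 2 together gave 238 calls (183 and 55). Removing list members named earlier left 7 genes of the progestin list, 8 of the glucocorticoid list, 4 of the androgen list and 0 of the estrogen list higher with MPA, and 0 of the androgen and 0 of the estrogen list higher with DHT. Over calls of at least 1.5-fold, the medians with PROG and DEX were 0.69 and 0.17 for genes higher with MPA, and -0.18 and -0.11 for genes higher with DHT. With 1 array left out, calls ranged from 380 to 459, androgen-induced genes higher with DHT from 1 to 2, and differences of at least 1.5-fold higher with DHT reached 28 without DHT replicate 3. Sample numbers did not pair, and with the replicate number as a block 479 were called, 456 of them shared. Genes without a call changed sign when 1 array was left out: KLK3 to -0.02 and -0.04, CLDN8 to 0.03, 0.02 and 0.04 (lowest -0.08, without DHT 3), the second SERF2 probe set to 0.03, 0.03 and 0.01, and the second RNF185 probe set to 0.00. Without DHT 1 and DHT 2, KLK3 was at -0.16 and CLDN8 at 0.13. Quantile normalization gave 534 calls, median centring 516 and a filter on dim probe sets 594. The causes of these shifts were not tested. A comparison of receptor DNA-binding domains was not run.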
